A study of Oryza sativa with 18 samples.

Results

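The m6A peaks of rice panicles at flowering are all rows of the list that the authors made from 3 immunoprecipitates and 3 inputs of this organ and stage. The list holds 19502 of the 58134 rows of the 3 lists of the series. 3 rows repeat another, which leaves 19499 peaks in 16709 genes. Of these genes 16665 are in the deposited expression table, where each has a description and its FPKM in the inputs (fragment counts scaled to transcript length and to all mapped fragments), and 44 genes with 53 peaks are not. All plants were of the cultivar Nipponbare with no other genotype or treatment labelled, were sown in the field on 2 May and were sampled at about 3 PM. Panicles were taken at booting on 3 August and at flowering on 14 August, and flag leaves were taken at flowering with no day labelled, so that for panicles the stage and the day of sampling cannot be told apart. Each of the 3 groups has 3 immunoprecipitates and 3 inputs, 18 libraries in all. Poly(A) RNA was broken into pieces of about 100 nt, 10% was kept as input, and an antibody to m6A pulled down the modified pieces from the remainder. Libraries keep the strand. Nothing in the labels says that replicates came from separate plants, so p-values measure only the spread between these samples.

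N6-methyladenosine (m6A) is a methyl mark on adenosines inside mRNA. A complex built around MT-A70 methyltransferases writes it, demethylases can remove it, and proteins with a YTH domain bind it and act on the stability, processing or translation of the transcript. In plants the mark lies mostly near the stop codon and in the 3' UTR, and it is needed for normal development, including that of flowers and pollen. A peak here is a stretch of transcript with more immunoprecipitate than input reads. Its fold, p and FDR are the authors' own values for 3 libraries against 3, without values for single replicates, so peaks carry no replicate error and no test between groups.

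The organ label was checked against markers. All 6 floral MADS-box genes looked at were expressed, from 33.2 FPKM for MADS13 in flowering replicate 1 to 799.9 FPKM for MADS1 in the same replicate. All 4 pollen and anther genes were abundant: expansin-B9 (LOC_Os10g40090), a pollen protein that loosens cell walls, had 3612, 3493 and 2943 FPKM in the 3 flowering inputs against 2.54 to 8.73 FPKM in the 6 other inputs. Leaf genes were present too. RuBisCO activase (LOC_Os11g47970), which keeps the enzyme of carbon fixation active, had 1474, 1263 and 1474 FPKM in flowering panicles against 55.5 to 78.2 FPKM at booting and 15106 to 15986 FPKM in flag leaves. The photosystem II protein PsbS (LOC_Os04g59440), chosen as a leaf marker, went against this, with 310.7 to 419.8 FPKM in flowering panicles and 73.6 to 98.1 FPKM in flag leaves. In whole organs, fewer cells of a type and less RNA per cell cannot be told apart. FPKM sums of the 3 flowering inputs were 555285 to 569592, with Pearson correlations of 0.9875 to 0.9907 between them on the log2 scale across genes.

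Input levels were compared between groups as log2(FPKM + 1) in limma, over 23355 genes. Called genes have a Benjamini-Hochberg adjusted p below 0.05 and a log2 change of at least 1 in size. Over all genes tested, 18.1% were higher and 15.3% lower at flowering than at booting, and 31% were higher and 11.5% lower than in flag leaves. The order of the first pair depends on scaling: 4226 genes were higher and 3576 lower with FPKM as deposited, 3871 and 4163 with equal library sums, and 3874 and 4019 after quantile normalization. Leaving out flowering replicate 1, 2 or 3 turned it as well, to 3245 and 3507, 3287 and 3559, and 3292 and 3711. The filter of at least 1 FPKM in 3 libraries was applied anew, however. Genes that reach 1 FPKM only in flowering inputs then went untested, so these counts cannot tell a replicate's effect from the filter's. Leaving out a booting replicate gave 4069 to 4332 higher and 2706 to 2807 lower. Both comparisons use the same 3 flowering inputs.

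Most flowering panicle peaks lay at the 3' end of the transcript. The authors' position classes put 15310 peaks (78.5%, exact 95% binomial interval 77.9 to 79.1%) in the 3' UTR, 3162 (16.2%, 15.7 to 16.7%) in an exon outside UTRs and 1027 (5.27%, 4.96 to 5.59%) in the 5' UTR. The intervals cover counting error only. The class is the authors' annotation, and a peak that touches several features appears under a single class. Measured from the gene ends given in the peak list itself, 11401 peaks (58.5%) stopped exactly at the end of their gene and 71.7% came within 100 bases of it. The centre of 58.3% of peaks lay in the last 10% of the gene, introns included, and 4.70% lay in the first 10%. A smaller rise in the middle of the gene holds peaks that cover nearly the whole of it: 292 peaks (1.5%) covered at least 90% of their gene's span, 108 of them in the exon class, 99 in the 5' UTR class and 85 in the 3' UTR class. In 31.4% of peaks the listed blocks crossed at least 1 exon junction, and the spliced length had a median of 390 bases (quartiles 266 and 510).

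**Figure D1:**
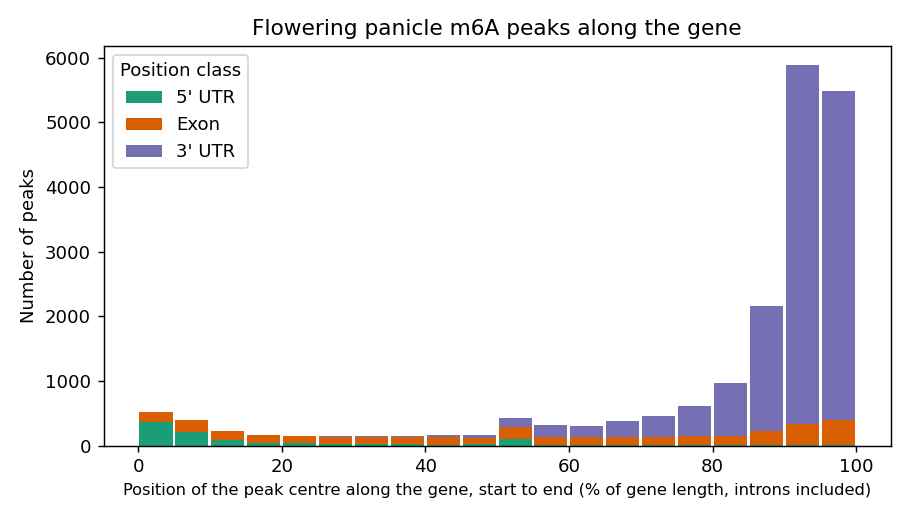
Number of flowering panicle peaks by where the peak's centre lies along the gene, from start to end in steps of 5% of gene length, coloured by the authors' position class. The tallest bars are the last ones, where 58.3% of all peaks have their centre in the last 10% of the gene, while 5' UTR peaks gather at the start.

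The classes differed in strength and in the genes that carried them. Peaks of the 3' UTR had a median fold of immunoprecipitate over input of 8.83 and a median spliced length of 420 bases, and their genes had a median of 10.6 FPKM. Peaks of the 5' UTR were shorter (240 bases, fold 6.88) but sat in genes of similar level, with a median of 11.6 FPKM, and 44.1% of them reached the exact start of the gene. Exon peaks had a median fold of 6.9 and a median length of 235.5 bases, and they sat in genes with a median of 0.392 FPKM. Of exon peaks in genes with an FPKM, 63.1% were in genes below 1 FPKM. The fold of 6.9 is also a value that 290 weak peaks of the whole list share exactly. By listed FDR the exon class was the weakest: 25.1% of its peaks had a log10 FDR of -10 or lower, against 66.2% in the 5' UTR and 87.2% in the 3' UTR. Of the exon peaks, 1121 lay in internal exons, 927 in the first exon, 744 in the last and 370 in genes with a single exon. The share of the 5' UTR class was larger among the highest folds: it made up 18 of the 100 peaks with the highest fold and 5 of the first 10, against 5.27% of all peaks. None of these differences has a test, since the list has no replicates.

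The peaks with the smallest listed p were mostly in the 3' UTR. For 6 peaks the list gives a p of 0, and 4 of them are in genes with an informative description. In LOC_Os08g37350, ubiquitin carboxyl-terminal hydrolase 17, which removes ubiquitin from proteins, the peak is in the 5' UTR (chr8:23600563-23601132 in the authors' coordinates, whose build is not given in the sources used here) with a fold of 111. Its gene had 23.8, 23.9 and 24.4 FPKM in the 3 flowering inputs. In LOC_Os12g43120, subunit 5 of the anaphase-promoting complex, which marks cell cycle proteins for destruction, the peak is in the 3' UTR (chr12:26770726-26771473, fold 50.4) and the gene had 2.58, 2.44 and 2.62 FPKM. The others are QWRF motif-containing protein 2 (LOC_Os03g55470, fold 41.2) and the splicing helicase DEAH9 (LOC_Os01g11370, fold 39.3). These are low to middling transcripts, all below 25 FPKM in every flowering input.

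The next peaks by p were in abundant transcripts, and all but 1 had folds of 15.2 or lower. Cytosolic malate dehydrogenase (LOC_Os10g33800), which interconverts malate and oxaloacetate, had a 3' UTR peak at chr10:17917022-17917850 with a fold of 9.15 and 487.4, 461.7 and 440.2 FPKM in the flowering inputs. Phosphoglucomutase (LOC_Os03g50480, fold 10.2), the protein-folding enzyme FKBP12 (LOC_Os02g52290, fold 11), an enolase-like protein of glycolysis (LOC_Os03g14450, fold 12.2) and a chloroplast glutamine synthetase (LOC_Os04g56400, fold 15.2) followed, each in the 3' UTR. The exception in both fold and position was glycine-rich cell wall structural protein 2 (LOC_Os10g31330), a gene with a single exon, whose exon peak at chr10:16429355-16429944 had a fold of 48.5. Its flowering inputs read 444.1, 363.8 and 316.4 FPKM against 50.4 to 75.7 FPKM at booting, and it was called higher at flowering (log2 change 2.61, SE 0.158, limma adjusted p 1.57e-07).

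The largest folds with an informative description were found in genes of another kind. A leucine-rich repeat protein (LOC_Os08g30980) had the largest, 250, in an exon peak of a gene with 1.46, 1.79 and 1.96 FPKM. TFIID subunit 15b (LOC_Os01g07070), part of the general transcription machinery, had a fold of 150 in a 5' UTR peak at chr1:3322774-3324275 and 12.8, 9.85 and 12.5 FPKM. Chloroplast ascorbate peroxidase 5 (LOC_Os12g07830, fold 122) had its peak in the 3' UTR. FAR1-RELATED SEQUENCE 6 (LOC_Os03g15010, fold 116) had an exon peak. The protein kinase SAPK8 (LOC_Os03g55600, fold 88.7), of a family that acts in abscisic acid and osmotic stress signalling, and a Cop1-like protein (LOC_Os01g52640, fold 88.6) both had theirs in the 5' UTR. Across the 16093 peaks of genes with at least 1 FPKM, fold and FPKM had a Spearman correlation of 0.046, given as a description of peaks that share libraries.

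Below, a gene is called expressed at a mean of at least 1 FPKM over the 3 flowering inputs, and the middle band is 5 to 100 FPKM. Of 21281 expressed genes 14217 had a peak (66.8%), and in the middle band 10291 of 13409 had a peak (76.7%). The share rose with level and then dropped. It was 39.1% at 1 to 2 FPKM and reached 81.7% at 20 to 50 FPKM. At 100 to 500 FPKM it was 59.6% (471 of 790 genes), and from 500 FPKM up it was 17.8% (16 of 90 genes). Expressed genes with a peak had a median of 11.9 FPKM (quartiles 5.16 and 25.8) and those without a median of 4.95 FPKM (2.12 and 15.0).

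**Figure D2:**
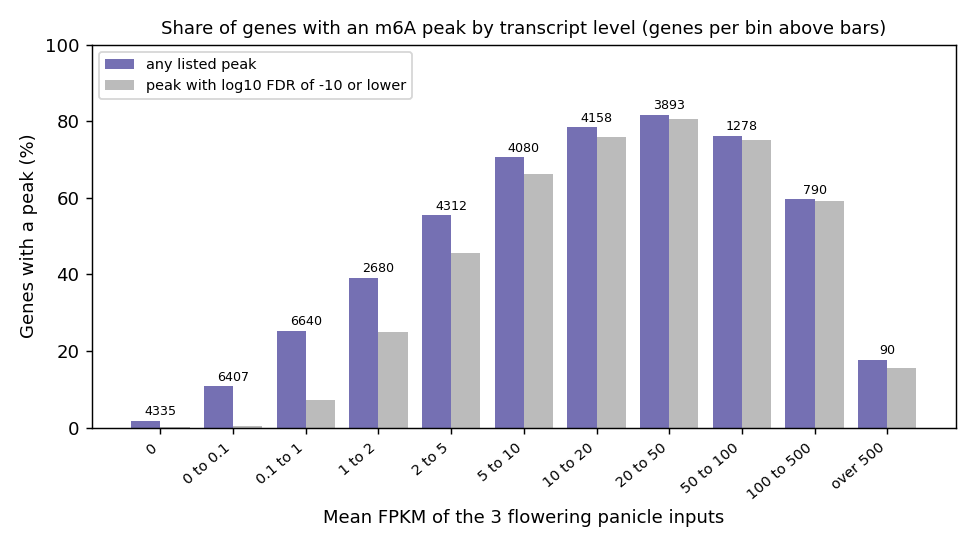
Percentage of genes with a flowering panicle peak by mean FPKM of the 3 flowering inputs, for any listed peak and for peaks with a log10 FDR of -10 or lower, with the number of genes in each bin above the bars. The share climbs to 81.7% at 20 to 50 FPKM and is 17.8% among the 90 genes from 500 FPKM up.

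Gene length moved with the share as well. In the middle band 19.2% of genes of up to 1000 bases had a peak, 36.1% of those of 1000 to 2000 bases, 71.3% of those of 2000 to 3000 bases and 92.2% of those over 5000 bases. The median length, introns included, was 4092 bases for expressed genes with a peak and 1878.5 bases for those without. The 90 genes from 500 FPKM up had a median length of 1288.5 bases. The part of gene length in the shares by level and by function was not tested. By chromosome the share among expressed genes stayed between 64.0% (chromosome 4) and 69.7% (chromosome 3).

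Groups of translation and of the proteasome had shares of genes with a peak above the 66.8% of all expressed genes, and heat shock proteins did not. Among cytosolic ribosomal proteins 141 of 150 expressed genes had a peak (94%), although the median length of these genes was only 2192 bases. Examples are 60S L17 (LOC_Os09g08430, fold 12.1, with 171.6, 158.0 and 174.7 FPKM) and 40S S9 (LOC_Os03g05980, fold 15.4, with 82.4, 88.3 and 88.7 FPKM). A second L17 gene, LOC_Os08g41810, with 114.8, 113.1 and 122.1 FPKM, had none. The near-identical copies of ribosomal protein genes can share reads, so which copy holds a peak is uncertain. Aminoacyl-tRNA ligases, which load tRNAs with amino acids, had peaks in 35 of 37 genes (94.6%), every one of their 38 peaks in the 3' UTR. Their median fold was 16.1, against 8.1 over the whole list. The ligase for alanine (LOC_Os10g10244) had a fold of 20.2 and 54.5, 51.6 and 53.7 FPKM. Proteasome subunits had peaks in 38 of 41 genes (92.7%), with proteasome subunit alpha type-5 (LOC_Os11g40140, fold 18.7) at 61.04, 64.1 and 56.8 FPKM. Heat shock proteins, which help others to fold, had peaks in 23 of 38 genes (60.5%), and in 56.5% of those in the middle band against 76.7%. This low share holds for genes described as heat shock proteins, not for folding proteins in general. In the middle band the authors' gene ontology terms protein folding (132 of 148 genes, 89.2%) and unfolded protein binding (58 of 60, 96.7%) lay above 76.7%. Heat shock protein 81-3 (LOC_Os09g30418) had none at 499.4, 399.2 and 476.2 FPKM. No test of these lists was made, and they are described by their counts.

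RNA processing and chromatin genes were similar. Splicing factors had peaks in 55 of 59 expressed genes (93.2%), with a median fold of 15.7. The serine/arginine-rich factor RSZ23 (LOC_Os02g39720) had a fold of 17.7 and 25.7, 24.5 and 28.1 FPKM, while pre-mRNA-processing factor 19 (LOC_Os10g32880), at 65.0, 62.4 and 70.9 FPKM, had no peak. RNA helicases had peaks in 61 of 67 genes (91.0%) and histone modifying enzymes in 43 of 47 (91.5%). Histone deacetylase HD2 (LOC_Os05g51830), which removes acetyl groups linked to open chromatin, had a fold of 12 and 99.9, 99.1 and 108.1 FPKM. Histones themselves were different, with peaks in 6 of 17 genes (35.3%). That count includes a gene that is no histone but a chaperone of the H2A.Z variant, CHZ1 (LOC_Os04g32470, fold 37.3). Histone H3.3 (LOC_Os03g27310), the variant laid down outside DNA replication, had a peak of fold 3.1 at 361.4, 348.0 and 375.5 FPKM. Histone H1 (LOC_Os06g04020) had none at 157.3, 102.9 and 163.0 FPKM. The expressed histone genes had a median length of 1587 bases.

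Transcripts of the m6A machinery were among those with peaks. All 5 expressed genes found by description had a peak, beside 66.8% of all expressed genes, and 4 of the 5 had one with a log10 FDR of -10 or lower. The MT-A70-like methyltransferase LOC_Os02g45110, a writer, had a 3' UTR peak of fold 8.33 with 16.9, 17.3 and 17.5 FPKM. Hakai (LOC_Os10g35190), known in Arabidopsis as a partner of the writer complex, had a fold of 16.3 with 17.1, 16.1 and 17.5 FPKM. The reader YTH domain-containing family protein 2 (LOC_Os03g20180) had a fold of 5.24 with 19.2, 18.3 and 17.3 FPKM. None of the 5 was called between flowering and booting panicles or between flowering panicles and flag leaves. Of 82 expressed genes of vesicle transport and sorting 72 had a peak (87.8%), among them coatomer subunit gamma-2 (LOC_Os07g10150, fold 18), part of the coat of Golgi vesicles. This list was added after values had been seen.

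Transcription factor families lay on both sides of the 66.8%. MADS-box factors, which set the identity of floral organs, had peaks in 29 of 34 expressed genes (85.3%). Their genes are long, with a median of 5981 bases, and 89.1% of all expressed genes over 5000 bases had a peak. MADS1 (LOC_Os03g11614), which shapes lemma, palea and floral meristem, had 799.9, 724.2 and 630.9 FPKM and a 3' UTR peak at chr3:6052750-6053255 with a fold of 8.98. At booting it had 360.1, 363.0 and 379.2 FPKM, and in flag leaves 4.62 to 6.37 FPKM. MADS16 (LOC_Os06g49840), needed for lodicules and stamens, had 272.4, 375.2 and 319.2 FPKM and a peak of fold 12.9, whose 4 blocks run over chr6:30173485-30176913 on the minus strand. MADS8 (LOC_Os09g32948) had 201.8, 269.2 and 290.9 FPKM, with a 3' UTR peak of fold 15.7. MADS13 (LOC_Os12g10540), a gene of ovule identity, had 33.2, 43.8 and 40.1 FPKM and a fold of 16.1. The flowering and booting values of MADS1, MADS8 and MADS16 did not overlap, but their log2 changes of 0.96, 0.61 and 0.62 stayed under the threshold of 1. MADS32 (LOC_Os01g52680), at 31.8, 33.7 and 35.7 FPKM, had no peak. MADS4 (LOC_Os05g34940), at 16.9, 24.9 and 23.8 FPKM, had none at flowering but had peaks in the lists of booting panicles and flag leaves.

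Squamosa promoter binding factors, of which several control panicle branching in rice, had peaks in 10 of 12 expressed genes (83.3%), and auxin response factors in 16 of 21 (76.2%). In the middle band 16 of 20 auxin response factors had a peak (80%), near the 76.7% of all genes there. The expressed genes of these families had median lengths of 5105 bases (squamosa) and 6039 bases (auxin response), beside 89.1% with a peak among all expressed genes over 5000 bases. Homeobox factors (36 of 62, 58.1%) and bHLH factors (22 of 46, 47.8%) were below the share of all expressed genes. WRKY factors had peaks in 21 of 51 genes (41.2%), NAC factors in 16 of 47 (34.04%) and MYB factors in 14 of 37 (37.8%). In the middle band, where level differs less, WRKY and NAC stayed at 50% and 37.5% against 76.7%, while bHLH reached 69.2%. The MYB count contains genes named target of Myb protein 1, which are not MYB factors and act in membrane traffic, LOC_Os01g12880 with a fold of 10.6 and LOC_Os06g22650 with a fold of 12. WRKY50 (LOC_Os05g09020) had no flowering peak at 109.0, 138.7 and 97.7 FPKM but had 1 in the flag leaf list. NAC78 (LOC_Os02g57650) had a peak of fold 11.9 at 62.7, 62.8 and 55.7 FPKM.

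Other families lay on both sides of the background or close to it. Receptor-like kinases had peaks in 169 of 282 expressed genes (59.9%, middle band 73.2%). Calcium-dependent and CBL-interacting kinases had them in 26 of 44 (59.1%, middle band 65.6%). F-box proteins, with 139 of 200 (69.5%), and E3 ubiquitin ligases, with 96 of 136 (70.6%), were close to the 66.8% of all expressed genes. In the middle band these groups had 79.4% and 77.6% against 76.7%. With a log10 FDR of -10 or lower, or folds of at least 4, the F-box share fell below that of all expressed genes. The E3 share stayed above it. Kinesins, the motors of microtubules, had peaks in 33 of 40 genes (82.5%) and ABC transporters in 58 of 69 (84.1%). Both are long, with medians of 6012.5 and 6444 bases, and both shares were below the 89.1% of all expressed genes over 5000 bases. Pentatricopeptide repeat proteins, which edit and process organelle RNA, had peaks in 95 of 203 genes (46.8%), at a median of only 2.61 FPKM, and in 65.4% of those in the middle band. Calcium-dependent protein kinase 34 (LOC_Os01g59360), whose Arabidopsis namesake acts in pollen tube growth, had no peak at 403.8, 624.2 and 497.0 FPKM.

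Several groups of membrane, cell wall and photosystem proteins had shares well below 66.8%. Aquaporins, the water channels of membranes, had peaks in 3 of 23 expressed genes (13.04%), and PIP1-2 (LOC_Os04g47220) had none at 668.3, 449.9 and 458.4 FPKM. Expansins and pollen allergens had peaks in 8 of 45 (17.8%), lipid transfer proteins in 8 of 33 (24.2%) and pectin modifying enzymes in 23 of 62 (37.1%). Photosystem and antenna proteins had peaks in 10 of 46 genes (21.7%), with a median fold of 2.88. RuBisCO small chain A (LOC_Os12g19381) had none at 1968, 1680 and 1897 FPKM. Enzymes of the Calvin cycle and photorespiration were nearer to it, with peaks in 10 of 18 genes (55.6%), one of which is a methionine salvage enzyme matched by its name (LOC_Os11g29370, fold 16.5). Phosphoribulokinase (LOC_Os02g47020), which regenerates the acceptor of carbon dioxide, had a fold of 4.08 at 377.9, 323.9 and 385.6 FPKM. Median lengths of the expressed genes in these groups were 1917 bases for aquaporins, 1341 for expansins and allergens, 1146 for lipid transfer proteins and 1301.5 for photosystem proteins, all under the 2192 bases of ribosomal protein genes. Pectin modifying enzymes, at 2544.5 bases, and Calvin cycle enzymes, at 2678 bases, were longer than these.

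Peroxidases split by kind, a split made after values had been seen. Of 10 ascorbate peroxidases, which clear hydrogen peroxide inside the cell, 9 had a peak, such as chloroplast ascorbate peroxidase 7 (LOC_Os04g35520, fold 14.7, with 53.1, 49.4 and 53.8 FPKM). Of 54 other peroxidases 14 had a peak (25.9%), and in the middle band 3 of 24 did. Peroxidase 44 (LOC_Os03g05770) had none at 144.2, 188.8 and 167.9 FPKM. Cytochrome P450 genes had peaks in 34 of 92 (37.0%). Those with the smallest p were 2 NADPH reductases that supply P450 enzymes with electrons (LOC_Os04g55960, fold 13.8, and LOC_Os09g38620, fold 17.5), not P450 enzymes themselves.

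**Figure D3:**
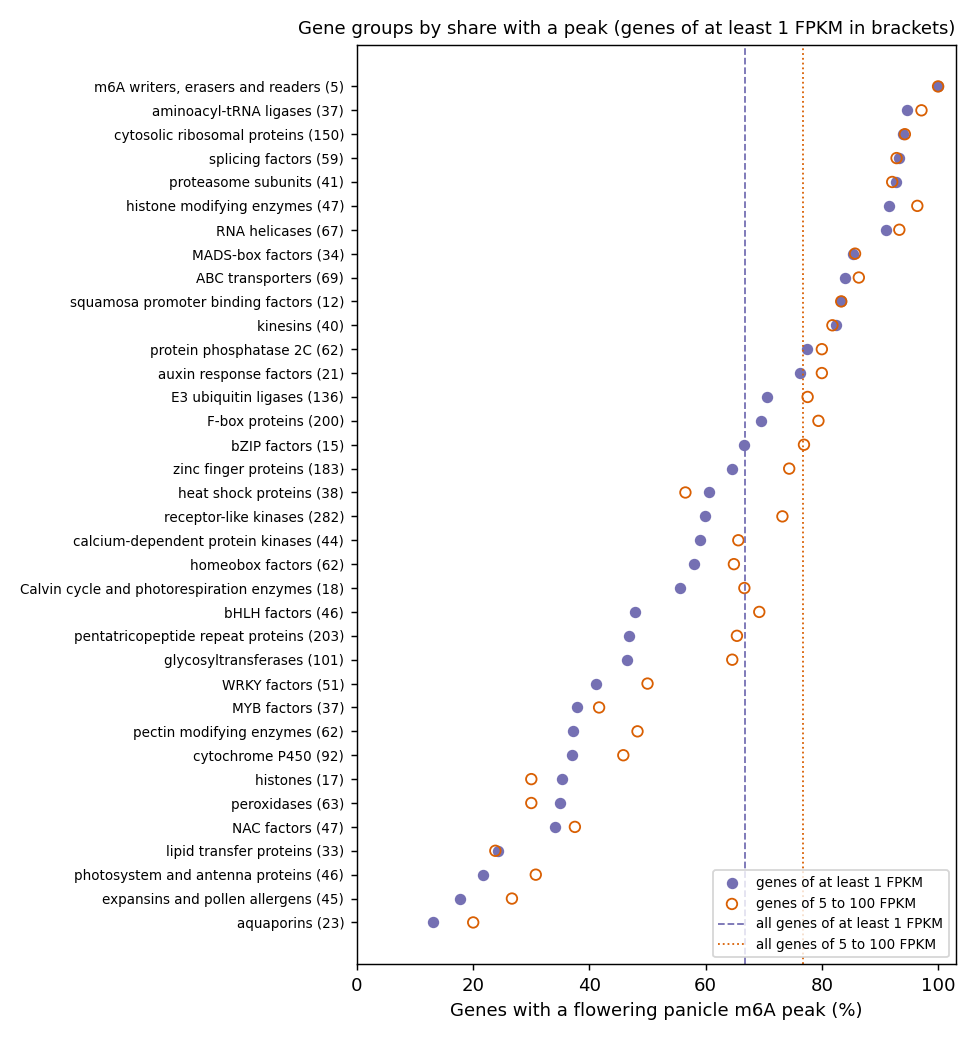
Percentage of genes with a flowering panicle peak in 36 groups chosen by description, for expressed genes (filled) and for those of 5 to 100 FPKM (open), with the shares over all such genes as vertical lines at 66.8% and 76.7%. Translation, splicing and proteasome genes lie right of the lines, heat shock proteins left of them, and aquaporins, expansins, photosystem and lipid transfer proteins far to the left.

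Of the 10 most abundant transcripts without a peak, 5 have no informative description. Besides expansin-B9 and RuBisCO small chain A, the other named ones are an anther-specific protein, an arabinogalactan protein and a metallothionein. The anther-specific protein (LOC_Os05g46530) had 2482, 2867 and 2799.9 FPKM. Arabinogalactan protein 6 (LOC_Os06g17450), a cell surface protein with an Arabidopsis namesake in pollen, had 1608, 2350 and 1763 FPKM. Metallothionein 3A (LOC_Os01g10400), a metal-binding protein, had 2460.2, 1979 and 2136 FPKM. The most abundant transcript with a peak was pollen-specific protein C13 (LOC_Os04g32680), with 1468, 2072 and 1873 FPKM and a 5' UTR peak of fold 4.41. The 3 other pollen markers had none. Extensin (LOC_Os05g13940), a cell wall protein, was next with 1679, 1192 and 1339.8 FPKM and a fold of 3. Further down, heat shock cognate 70 (LOC_Os11g47760), a protein-folding chaperone, had 971.8, 876.3 and 1028 FPKM and a fold of 8.96.

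**Figure D4:**
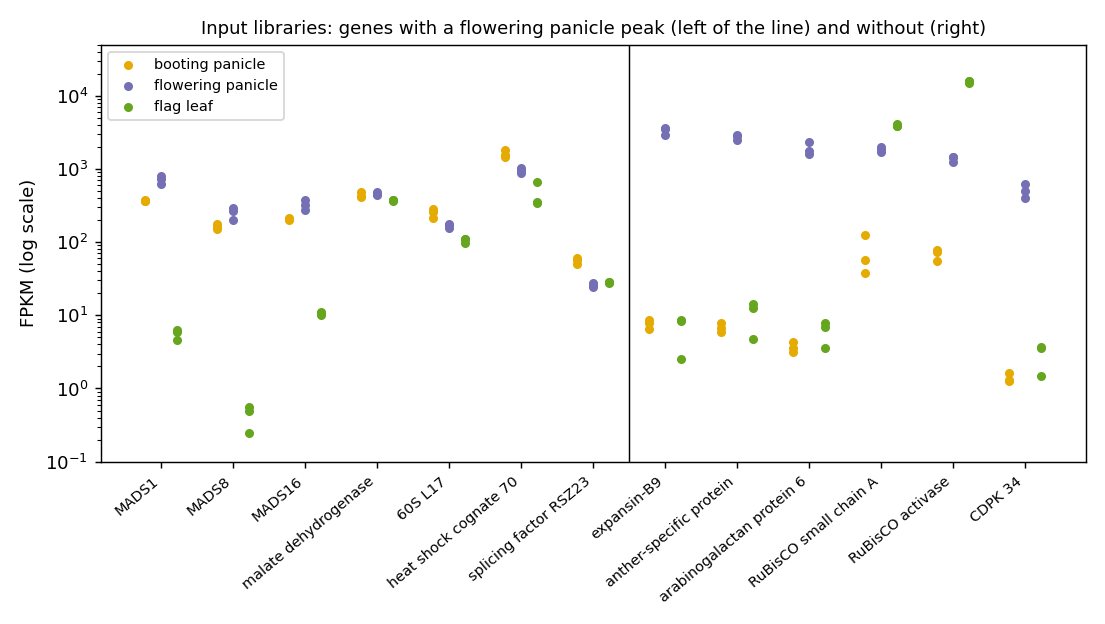
FPKM on a log axis in each of the 9 input libraries for 7 genes with a flowering panicle peak (left of the line) and 6 without (right), chosen from the genes named in the text. Expansin-B9 lies at 2943 FPKM or above in the flowering inputs and at 8.73 FPKM or below in all others, while malate dehydrogenase, which has a peak, lies between 365.8 and 488.4 FPKM in all 9.

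The comparison with booting panicles asks how transcripts with a flowering peak changed as the panicle opened. Of the 16665 genes with a peak 14828 could be tested and 1837 fell under the filter on low values. Among those tested 1891 were higher at flowering (12.8%) and 1919 lower (12.9%), against 18.1% higher and 15.3% lower over all genes tested. Among the 8527 tested genes without a peak 2335 were higher (27.4%) and 1657 lower (19.4%). With equal library sums 1663 peak genes were higher and 2343 lower, and the median log2 change of all genes moved from -0.09 to -0.20. As deposited, the median log2 change was -0.16 with a peak, and 0.09 without.

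Read the other way, the share with a peak was lowest among genes called higher at flowering. Among genes of 5 to 100 FPKM, 52.5% of 2759 higher genes had a peak, 72.5% of 1365 lower ones and 84.7% of 9277 not called. From 100 FPKM up, 134 of 427 higher genes had a peak (31.4%) against 332 of 420 not called (79.0%). These shares are descriptions across genes. Peak calling needs reads in the transcript, so level and peak are not independent.

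Among peak genes with at least 20 FPKM in the higher group, C13 increased most. It stood at 4.52, 6.92 and 6.16 FPKM at booting against 1468 FPKM or more at flowering (LOC_Os04g32680, log2 change 8.04, SE 0.207, limma adjusted p 5.15e-10). TsetseEP (LOC_Os05g13830) went from 2.27 to 3.46 FPKM at booting to 640.5, 813.7 and 716.2 FPKM (log2 change 7.61, SE 0.24, limma adjusted p 1.72e-09). A clathrin assembly protein (LOC_Os02g07900), of a family that builds endocytic vesicles, had 396.0, 594.7 and 458.6 FPKM against 1.43 to 2.16 FPKM. Calcium-dependent protein kinase 7 (LOC_Os12g12860) had 175.6, 275.8 and 211.2 FPKM against 0.677 to 0.728 FPKM. TBC1 domain family member 15 (LOC_Os07g34130), a likely regulator of Rab GTPases, rose as well. In all 5 the flowering values lay far above those of booting, and the folds of their peaks were 1.59 to 4.41. The median fold was 6.11 for genes of 100 to 500 FPKM and 3.43 from 500 FPKM up, so that the 4.41 of C13 was above the median of its level.

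Of the same genes, peroxidase A2 (LOC_Os03g13200) decreased most. It had 285.4, 175.3 and 178.6 FPKM at booting and 1.15, 0.955 and 1.27 FPKM at flowering (log2 change -6.62, SE 0.182, limma adjusted p 7.50e-10). Cytochrome P450 703A2 (LOC_Os08g03682), whose relatives make fatty acid units of the pollen wall, fell from 160.0, 68.4 and 129.8 FPKM to 0.581, 0.751 and 0.811 FPKM (log2 change -6.05, SE 0.262, limma adjusted p 1.45e-08). A GDSL esterase (LOC_Os02g01980) fell by 6.30 on the log2 scale. The fatty acid synthesis enzyme 3-oxoacyl-acyl-carrier-protein reductase 4 (LOC_Os12g13930) fell by 5.52 and an Ole e 10-like allergen (LOC_Os08g04140) fell by 5.41. All 5 had at most 1.27 FPKM in every flowering input and still had a listed peak, with folds of 5.92 to 16.4.

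Against flag leaves, 4052 of the tested peak genes were higher in flowering panicles (27.3%) and 1478 lower (9.97%), beside 31% higher and 11.5% lower over all genes tested. Without a peak 3187 were higher (37.4%). This split depends on scaling: 73.3% of the called peak genes were higher with FPKM as deposited and 44.6% after quantile normalization, which moved the median log2 change of all genes from 0.44 to -0.12. From 100 FPKM up, 226 of 515 higher genes had a peak (43.9%) against 213 of 278 not called (76.6%). MADS8 was among the largest increases, at 201.8 FPKM or more against 0.248 to 0.560 FPKM in flag leaves (LOC_Os09g32948, log2 change 7.46, SE 0.136, limma adjusted p 8.85e-11). Others were ervatamin-C (LOC_Os09g21370), a cysteine protease, and the vesicle fusion protein VAMP726 (LOC_Os03g06960), with peak folds of 1.94 and 1.71. Lipoxygenase 2.3 (LOC_Os02g10120), a chloroplast enzyme of jasmonate synthesis, had the largest decrease, with 0.350, 0.459 and 0.531 FPKM in panicles against 169.8, 172.4 and 161.5 FPKM in flag leaves (log2 change -6.87, SE 0.085, limma adjusted p 6.68e-11). Its panicle peak was weak, with a fold of 2.83.

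**Figure D5:**
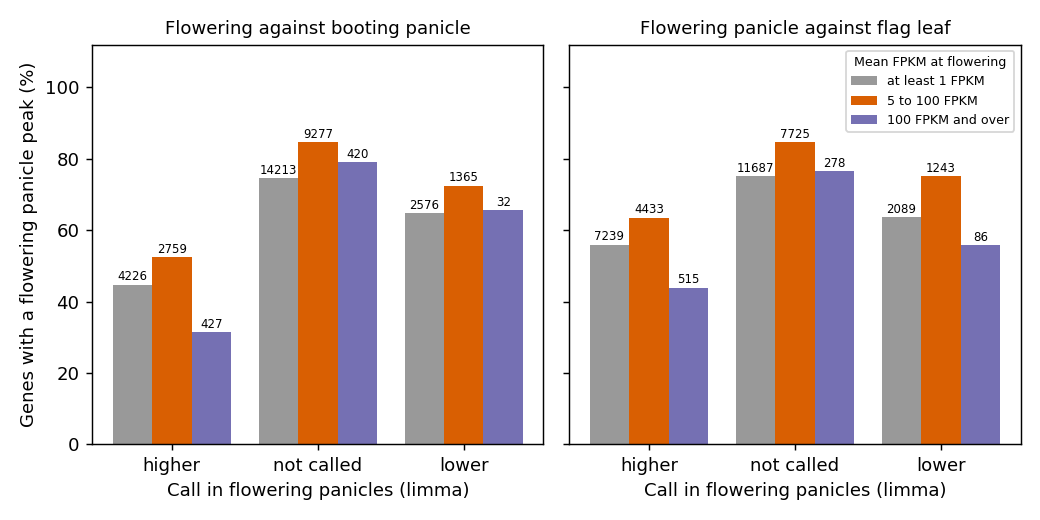
Percentage of genes with a flowering panicle peak among those called higher, not called or called lower in flowering panicles against booting panicles (left) and flag leaves (right), by mean FPKM at flowering, with gene numbers above the bars. From 100 FPKM up the share is 31.4% among genes higher than at booting and 79.0% among those not called.

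Most flowering panicle peaks had a counterpart in the other lists. By at least 1 shared base of the spliced blocks on the same strand, 86.9% overlapped a booting panicle peak (88.5% of the booting list) and 85.6% a flag leaf peak (84.6% of the leaf list). In all 15552 peaks (79.8%) overlapped both, 1395 booting only, 1148 leaf only and 1404 (7.20%) neither. Peaks without a counterpart were the weakest by listed FDR: 35.7% had one over 0.05, against 1.09% of those that overlapped both. Of them 57.4% were in the exon class, and their genes had a median of 0.496 FPKM. By fold they were not the weakest. Their median was 5.92, against 5.92 for booting only, 3.94 for leaf only and 9.17 for both. By class, 3.00% of 3' UTR peaks, 13.5% of 5' UTR peaks and 25.5% of exon peaks overlapped neither list. Of the 15281 genes with at least 1 FPKM in all 3 groups, 77.3% had a flowering peak, 11395 (74.6%) had a peak in all 3 lists, 2621 (17.2%) in none and 77 (0.504%) in the flowering list alone.

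Altogether 874 genes had a peak at flowering and in neither other list. Of these 590 were below 1 FPKM and 284 were expressed. Of 268 tested among the latter, 117 (43.7%) were higher than at booting, against 18.1% over all genes tested and 35.5% of genes expressed at flowering with no peak in any list. Against flag leaves 168 (62.7%) were higher, beside 31% and 48.6%. Requiring 1 FPKM at flowering favours genes that are high there, so these counts are only descriptions. The 10 with the smallest p that have an informative description include several genes with almost no reads elsewhere. Caffeoylshikimate esterase (LOC_Os12g16180), in Arabidopsis an enzyme of lignin synthesis, had 16.3, 22.9 and 19.2 FPKM at flowering and at most 0.0778 FPKM in the 6 other inputs. Its 3' UTR peak at chr12:9250084-9250382 had a fold of 5.41. The expansin EXPA26 (LOC_Os12g36040) had 41.8, 45.8 and 44.4 FPKM against at most 0.384 FPKM, and a fold of 2.72. The proline-rich receptor-like kinase PERK13 (LOC_Os03g37120), the anion channel CLC-c (LOC_Os01g65500), the protein SRC2 (LOC_Os05g05650), a GDSL esterase (LOC_Os03g38390) and a gamma-type subunit of SnRK1 (LOC_Os01g69240), a kinase that senses energy status, were likewise at 0.392 FPKM or below in all 6 other inputs. Others were expressed elsewhere too. Vam6/Vps39-like protein (LOC_Os03g50740), which tethers vacuole membranes, had 14.9, 17.3 and 16.97 FPKM at flowering against 20.01 to 21.2 at booting and 9.94 to 10.4 in leaves. Cellulose synthase A9 (LOC_Os09g25490), of the secondary wall, had 37.8, 24.8 and 27.1 FPKM against 40.9, 52.2 and 21.6 FPKM at booting. TIFY 11b (LOC_Os03g08330), of the family that represses jasmonate responses, had 57.2, 67.9 and 63.8 FPKM against 30.5, 21.6 and 11.5 FPKM at booting and 55.2, 47.9 and 7.56 FPKM in flag leaves.

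Part of the list lies in genes with almost no input reads. Of the genes with a peak 2448 (14.7%) were below 1 FPKM, and 75 had 0 FPKM in all 3 inputs. Weak peaks sat there: 1022 peaks had a log10 p above -2, and 81.5% of these were in genes below 1 FPKM. Many share exactly the same values, with 290 peaks listed at a log10 p of -1.43 and a fold of 6.9. In all 1040 peaks (5.33%) have a listed FDR over 0.05. Strong peaks occurred there too. Of 595 peaks with a log10 FDR of -10 or lower in genes below 1 FPKM, 129 (21.7%) overlapped the span of another expressed gene, 121 of them on the opposite strand alone, against 5.29% of 14220 such peaks in expressed genes. Whether reads of the neighbour make these peaks was not tested. An example of a strong peak in a weak transcript is that of receptor-like kinase HERK 1 (LOC_Os03g17300), with a fold of 14 and a log10 p of -5710 at 0.536, 0.676 and 1.07 FPKM.

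Genes with many peaks were mostly of this kind. Of the genes with a peak 14545 had 1, 1806 had 2 and 358 had 3 or more. Of 356 genes with 3 or more that are in the table, 190 were below 1 FPKM and 115 are described as transposon genes. The transposon list was added after values had been seen. Among all 16665 genes with a peak in the table, 469 are transposon genes. Of the 166 genes with 3 or more peaks and at least 1 FPKM, only 10 are. The 3 genes with 9 peaks had at most 0.531 FPKM in any flowering input, and 2 of them, LOC_Os07g10050 and LOC_Os09g19290, are described as retrotransposon proteins. Of all transposon peaks 90.3% (821 of 909) were in the exon class and 13.2% had a log10 FDR of -10 or lower, against 76.1% of the whole list. Copies of transposons share sequence, so that the gene to which their reads belong is uncertain.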

How the data were processed

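Cutadapt, ChIPseeker, HISAT2, HOMER and StringTie are the tools named in the submitters' processing notes. Tool versions, the build of the genome, the peak caller and how strand was used in quantification were not given in the sources used here. FPKM for 38663 genes in 9 inputs and 1 peak list for each group were deposited by the authors. A peak carries, per the file headers, a p-value in the score column, the base-10 logarithm (log10) of p and FDR, and a fold (ratio) of immunoprecipitate over input. Peak coordinates, blocks and position classes are as deposited. These values were used only within a list. Peaks were joined to FPKM by gene ID. Low FPKM values of 575 genes with 1 exon were tried as multiples of a single fragment (tolerance 0.1) over a range of assumed depths. At 1 fixed depth 20% would be whole at random, and the best of many depths lies higher at random too. At the best depth only 34.1 to 41.4% of values per flowering input were whole. Depth is therefore unknown, and no count test was run.

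Inputs were compared as log2(FPKM + 1), which understates changes of low genes, for genes of at least 1 FPKM in 3 or more libraries, in 1 limma 3.58.1 (R 4.3.3) fit over the 3 groups, whose prior variance followed the mean level, and Benjamini-Hochberg adjustment over all genes tested. The fit and the overlap of peaks were tested on simulated data. Functional lists match words in descriptions. Genes were named by rank in p, fold, level, number of peaks and log2 change, with at least 20 FPKM in the higher group for changes, up to 4 members with a peak per list, and by marker lists. The list members named without a peak were added to this rule after values had been seen. Members and lists were chosen with earlier results of these data known. Tables were made with Python 3.11.15 and pandas 2.3.3. Alternatives were the FDR, fold, FPKM filter, overlap rule, pseudocount, scaling, replicate left out and replicate block. Motifs and sequences were not analysed here, since no genome of the files' build was used.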

Additional observations from a re-analysis of the deposited data

How the results depend on the processing

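Keeping only peaks with a log10 FDR of -10 or lower moved the classes to 90.1% 3' UTR, 5.35% exon and 4.59% 5' UTR, the share of expressed genes with a peak to 61.4%, and the overlap to 97.0% with booting and 95.7% with leaf peaks. Keeping only folds of at least 4 gave 80.0%, 15.2%, 4.79%, 54.0%, 90.3% and 88.1% in the same order. Counting genes from 5 FPKM gave 75.4%, and no FPKM filter gave 43.1%, with medians of 9.05 FPKM with a peak and 0.165 without. Requiring 50% of both peaks gave overlaps of 78.6% (booting) and 76.3% (leaf), and a peak in the same gene 90.6% and 88.9%. The cause of these moves was not tested.

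A pseudocount of 5 gave 1088 higher and 1131 lower peak genes against booting and 2076 higher against leaf, since it shrinks changes of low genes. Quantile normalization gave 2148 higher and 2667 lower against leaf; the cause was not tested. Leaving out 1 library at a time gave 1654 to 1955 higher and 1707 to 2017 lower against booting, and 3707 to 4081 higher and 1350 to 1502 lower against leaf. The filter on low values was applied anew each time. Genes of at least 1 FPKM in 1 group alone thus went untested when a library of that group was left out. Without 1 flowering input, 66.8 to 67.0% of expressed genes had a peak. The peak list stayed the pooled one, so this share can change only through the FPKM filter. It cannot show how peaks vary between replicates. Of values for single lists and genes, 30 moved beyond their counting interval or threshold and 375 did not. No log2 change of a single gene changed its sign. These counts are no measure of stability. The genes were named for the largest changes, so a turn of sign was hardly possible. Leaving out a library of the group outside a comparison cannot alter its log2 change, and genes that fell under the filter were not counted. Lists near the share of all expressed genes could change side of it. F-box proteins had 69.5% against 66.8% as listed, 60.5% against 61.4% with the stricter FDR, and 51% against 54.0% with folds of at least 4. Same-numbered replicates did not pair (residual correlations -0.189 to 0.118, 2 of 9 over 0.1). With the replicate block 1892 peak genes were higher and 1921 lower against booting, and 4054 higher and 1478 lower against leaf. Motif alternatives were not run, as no genome was used. Absence of a peak in weak transcripts may only reflect depth, and the lists carry no replicate values.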

Other observations

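Metabolic pathways, taken from the authors' annotation in the expression table, differed among genes of 5 to 100 FPKM, of which 76.7% had a flowering panicle peak. Of 84 pathways with at least 40 such genes, the highest share was that of the peroxisome, the organelle of fatty acid breakdown and peroxide removal, with 177 of 183 genes (96.7%). Lysine degradation (55 of 57), steroid biosynthesis (46 of 48), pyruvate metabolism (98 of 104) and fatty acid degradation (47 of 50) followed. The lowest share was that of diterpenoid biosynthesis, which makes gibberellin precursors and rice phytoalexins, with 19 of 50 genes (38%). Flavonoid biosynthesis (35 of 69), photosynthesis (24 of 46) and pentose and glucuronate interconversions (60 of 92) were the next lowest. The gene ontology term photosynthesis had peaks in 32 of 41 genes (78.0%). Genes can stand in several pathways, and no pathway was tested.

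Of the 1806 genes with 2 peaks, 767 (42.5%) had both in the 3' UTR class and 485 (26.9%) had 1 in the 5' UTR and 1 in the 3' UTR. A further 327 paired a 3' UTR with an exon peak, and 196 had both in the exon class.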
